A study of Arabidopsis thaliana with 12 samples.

Results

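The genotype by dehydration interaction asks, for each gene, whether the change in transcript level after dehydration was of the same size in the Arabidopsis thaliana mutant cost1 as in wild type (WT). It was computed as cost1 dehydrated minus cost1 control, less WT dehydrated minus WT control, on the log2 scale. A positive value means that a gene rose more, or fell less, in cost1. All 12 poly(A) RNA libraries of the series enter it, 3 in each of 4 groups, which are untreated and dehydrated WT and untreated and dehydrated cost1. Each library was made from 10-day-old whole seedlings grown upright on plates of medium, and the dehydrated seedlings were laid on a petri dish for 6 h. The lesion in cost1, the number of seedlings per library and the wild-type accession are not given in the sources used here.

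Water loss raises the hormone abscisic acid (ABA) in plants. ABA bound to its PYR/PYL receptors blocks the clade A PP2C phosphatases, and the kinases released in this way activate transcription factors that switch on genes for protective proteins, osmolytes and water channels. A parallel branch runs through the DREB factors, and jasmonate, senescence and autophagy genes also respond. Autophagy is the degradation of cell contents in vesicles that carry ATG8 proteins, and the series title describes COST1 as a plant protein that attenuates it and balances growth with drought tolerance. COST1 belongs to the DUF641 family.

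The expected counts, the authors' estimates of the reads of each gene, summed to between 5884728 and 6223687 per library. COST1 itself (AT2G45260) stood at 27.1, 32.7 and 29.3 CPM (counts scaled to library size) in WT control and at 32.0, 25.8 and 25.9 in WT dehydrated. In cost1 it stood at 7.97, 7.49 and 5.33 CPM in control and at 9.26, 10.9 and 9.73 under dehydration, below every WT library in both conditions. Whole-seedling RNA held leaf transcripts, with the Rubisco small subunit gene RBCS1A between 5408 and 12580 CPM. The filter on low counts was passed by 4 of 10 root cell markers, 10 of 10 stomatal lineage and guard cell markers and 4 of 7 seed markers. The root markers that passed were WOX5, SCR, SHR and GL2, and the rest of that list did not pass. In such bulk RNA, fewer cells of a type and less RNA per cell cannot be told apart. No label tells whether replicate libraries came from separate plants or dishes, and p-values here reflect variation among libraries that may be technical only.

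2 cost1 libraries lay outside the range of the other libraries of their condition. On the first principal component of log2 CPM, which held 77.4% of the variance and separated control from dehydrated libraries, cost1 control replicate 2 lay at −50.5 and the other 5 control libraries between −91.1 and −86.7. Cost1 dehydrated replicate 2 lay at 114, beyond the other 5 dehydrated libraries at 60.1 to 89.4. By the quality weights of limma-voom, lower for libraries that vary more, the lowest was cost1 dehydrated replicate 1 at 0.35. Cost1 control replicate 2 had 0.41 and cost1 dehydrated replicate 2 had 0.47. In cost1 control replicate 2 the median level of the dehydration and ABA-induced genes was 5.25 on the log2 CPM scale, against 3.33 to 3.57 in the other controls, and that of the flavonoid and anthocyanin genes was 4.93 against 2.34 to 2.84. The clock gene TOC1 stood there at 36.5 CPM and in the other controls at 96.8 to 125.5 CPM. Many results, though not all, are given with and without the cost1 replicates numbered 2, and why the libraries differ was not tested.

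Across the genome, dehydration changed much the same genes in both genotypes, in the same direction and by similar amounts. Of 18809 genes tested, 8549 changed in WT at an adjusted p under 0.05 (45.5%), 4680 higher (24.9%) and 3869 lower (20.6%). In cost1 9585 changed (51.0%), 4974 higher (26.4%) and 4611 lower (24.5%). The share of these calls that was higher was 54.7% in WT and 51.9% in cost1, and 42.8% and 40.9% where libraries were scaled by their totals alone. The 2 genotypes had 7250 changed genes in common, which were 84.8% of the WT calls and 75.6% of the cost1 calls. Of these, 4105 rose in both, 3144 fell in both and 1 moved in opposite directions.

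Over all tested genes the log2 response in cost1 correlated with that in WT at Pearson r = 0.936 and Spearman rho = 0.905. These are correlations across genes, which are not independent replicates, and the WT and cost1 responses share no library. Among the 15174 genes whose highest group averaged at least 5 FPKM (the authors' level scaled to transcript length and depth), r was 0.952 and rho 0.928. The SD of the response over genes was 1.40 in WT and 1.32 in cost1, and the major axis of the scatter had a slope of 0.94 cost1 units per WT unit. Without cost1 control replicate 2 the slope was 1.05, without cost1 dehydrated replicate 2 it was 0.885, and without both it was 0.982. Which genotype had the larger response over all genes thus changed with a single library.

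**Figure D1:**
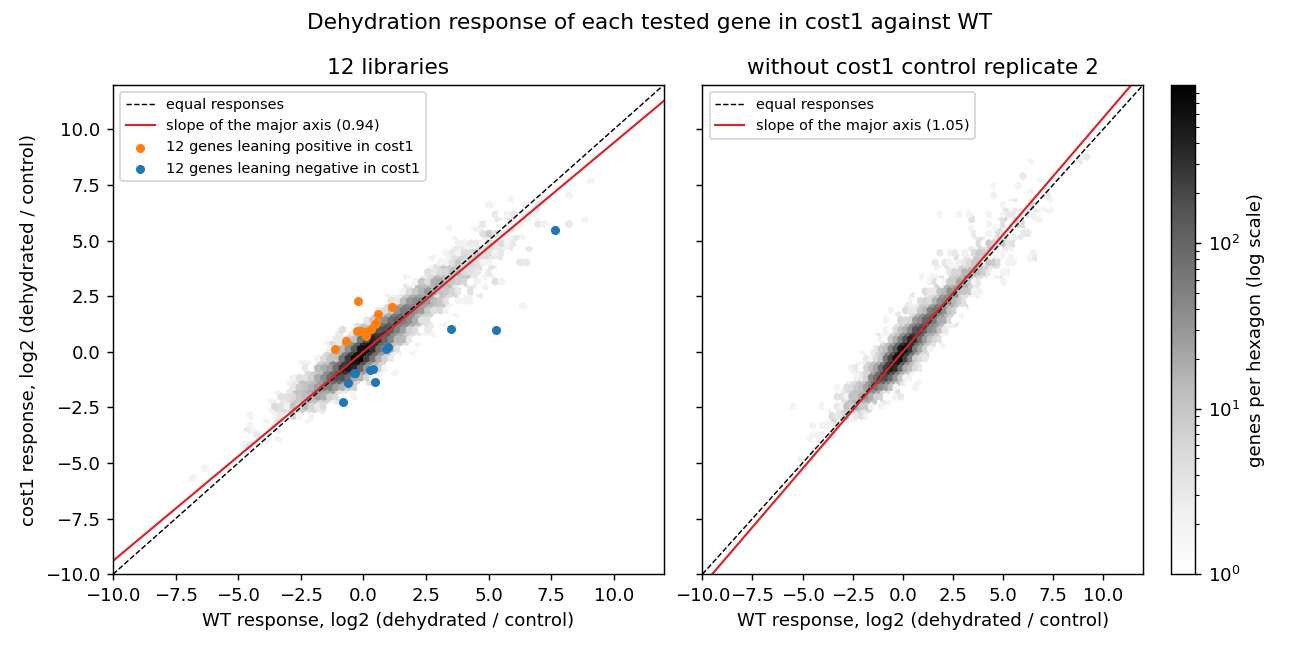
Log2 dehydration response (dehydrated over control) of each of 18809 genes in cost1 (vertical axis) against WT (horizontal axis), as genes per hexagon on a log grey scale; the left panel uses all 12 libraries, with the 12 genes leaning most to each side coloured, and the right panel leaves out cost1 control replicate 2. Dashed lines mark equal responses and red lines the major axis, whose slope was 0.94 on the left and 1.05 on the right.

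The interaction test called no gene. By edgeR's quasi-likelihood test, 0 of 18809 genes (0%) had an adjusted p under 0.05, and the smallest adjusted p was 0.9993. At an unadjusted p under 0.05 there were 690 genes (3.67%), 301 leaning positive in cost1 (1.60%) and 389 leaning negative (2.07%). A level of 0.05 would give 940 genes if no gene differed. DESeq2 called 1 gene, BAM5, and limma-voom with sample quality weights called 0, with 1433 genes at an unadjusted p under 0.05. The median interaction over all genes was −0.02, with an SD of 0.495 over genes and a median standard error of 0.293.

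A gene that was not called was not thereby shown to respond alike. The 95% interval of the interaction lay within a 2-fold difference in either direction for 11074 genes, or 58.9% of those tested, and for 69.4% of the genes at 5 FPKM or more. The half-width of that interval had a median of 0.64 on the log2 scale, and ran from 0.37 at the lowest decile to 1.5 at the highest. For the remaining 7735 genes (41.1%) the interval reached beyond 2-fold.

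No gene called in a single genotype passed the test of the difference itself. There were 1299 genes called in WT alone and 2335 called in cost1 alone by the responses. Of the genes called in WT alone, 1226 (94.4%) had a response of the same sign in cost1, with a median size of 0.77 in WT and 0.38 in cost1 on the log2 scale. Of those called in cost1 alone, 2229 (95.5%) had the same sign in WT, with a median size of 0.32 in WT and 0.64 in cost1. An unadjusted interaction p under 0.05 was found for 11.8% of the first set and 9.81% of the second. These shares and sizes follow partly from how the sets were chosen, by a threshold passed in 1 genotype and missed in the other. Without cost1 dehydrated replicate 2 the counts were 2500 in WT alone and 1094 in cost1 alone, and without both cost1 replicates numbered 2 they were 2459 and 780.

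For strongly responding genes, the sign of the difference between the genotypes depended on single libraries. Among 451 genes whose mean response was a rise of over 4 log2 units, the median interaction was −0.39, with a median rise of 5.38 in WT and 4.92 in cost1. Among 1028 genes with a mean rise of 2 to 4 it was −0.06. Among 323 genes with a mean fall of 2 to 4 it was 0.32, and among 40 genes with a fall of over 4 it was 0.87, so that these falls were smaller in cost1. In each fit with libraries left out, the sets were formed anew from the responses of that fit, so their genes could change as well. Without cost1 control replicate 2 the 4 medians were 0.17, 0.17, 0.11 and 0.41, so the strongest rises then leaned to cost1. Without cost1 dehydrated replicate 1 the medians for both sets of falling genes turned negative, at −0.21 for falls of 2 to 4 and −0.11 for falls of over 4. Genes with a mean response within 1 log2 unit of 0, 14026 in all, had a median interaction of −0.02.

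**Figure D2:**
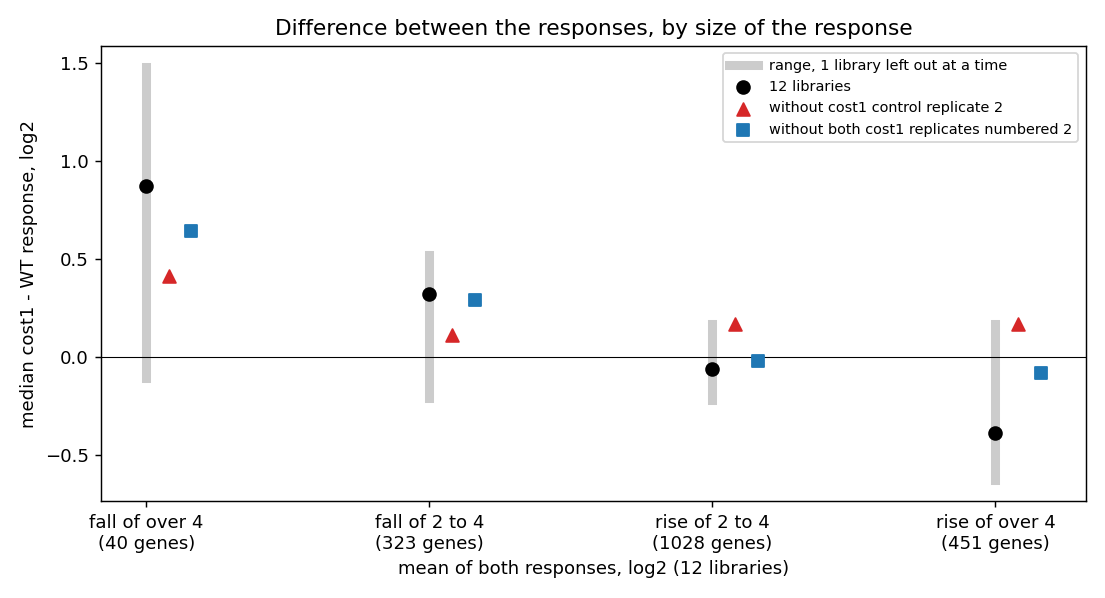
Median difference between the cost1 and the WT response (vertical axis, log2) in 4 sets of genes grouped by the mean of both responses; black points use 12 libraries, red triangles leave out cost1 control replicate 2, blue squares leave out both cost1 replicates numbered 2, and grey bars span the values with 1 library left out at a time. The sets were formed anew in each fit, and the gene numbers on the axis are those with 12 libraries. The bars of all 4 sets cross 0.

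The genes that leaned most to one genotype are described next. They are the 12 in each direction with the smallest unadjusted interaction p among genes at 5 FPKM or more in their highest group. The interaction chose them, so their values are a description. All 24 kept their direction under every alternative setting that tested them, and all 24 had an unadjusted edgeR p under 0.05 without cost1 control replicate 2. The alternatives reuse the libraries that chose these genes, which favours both outcomes, so neither is independent support. In 23 of the 24 every cost1 difference between a dehydrated and a control library lay beyond every WT one, with AT4G36700 the exception. Over all genes this held in the positive direction for 143 (0.760%) and in the negative direction for 152 (0.808%). By the fitted estimates, the genotype difference had opposite signs in control and under dehydration in all 24. Choosing genes by the interaction favours both this change of sign and the separation of the libraries. It also favours gaps between the genotypes within a condition. Such gaps are given below for single genes, and their share over all genes was not counted. For CIP7 and AT4G28360 the control difference was within its error of 0, at 0.03 ± 0.10 and 0.02 ± 0.11 (SE). The genotype difference was called for none of them, against 0.0213% of all genes in control and 0.0372% under dehydration.

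The smallest p belonged to BAM5 (AT4G15210), a beta-amylase that cleaves starch-like glucans outside the plastid. It stood at 2.06, 2.73 and 3.33 CPM in WT control and rose to 403.5, 465.3 and 759.2 CPM in WT dehydrated. In cost1 it stood at 7.02, 10.8 and 7.99 CPM in control and at 305.6, 394 and 458.6 CPM under dehydration. Every cost1 control library was thus above every WT control library, while the dehydrated groups overlapped. The log2 response was 7.64 in WT and 5.48 in cost1, an interaction of −2.15 ± 0.41 (SE) with an unadjusted p of 0.0001869 and an adjusted p of 0.9993 in edgeR. DESeq2 gave the same −2.15 with an adjusted p of 0.0223, and the estimate ranged from −2.33 to −1.63 over the alternatives. BAM5 rose strongly in both genotypes, and the genotypes differed by 1.66 log2 units in control and by −0.49 under dehydration.

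AT4G34080 is annotated as a DUF641 protein, the family of COST1. Its level was 0.317, 0.455 and 0.475 CPM in WT control, 4.88, 6.37 and 3.68 in WT dehydrated, 0.957, 1.43 and 1.48 in cost1 control and 2.02, 2.33 and 3.52 in cost1 dehydrated. It was thus higher in every cost1 control library than in every WT one, and lower in every cost1 dehydrated library. The response was 3.52 in WT and 1.01 in cost1, an interaction of −2.51 with an unadjusted p of 0.000747 in edgeR. The counts are small, at 8 reads over WT control and 87 over WT dehydrated. The deposited counts are not whole numbers in any of the 12 libraries, as estimates are where reads are divided between similar genes, so its values are uncertain. The same held in all 12 libraries for COST1, P5CS1, RBCS1A and RD28, in 11 for AT4G28360, in 7 for AT1G29430, in 6 for PAD3 and in 5 for AAE12.

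2 signalling genes leaned negative in cost1. ARR6, a type-A response regulator that dampens cytokinin signalling, stood at 3.33, 4.40 and 4.59 CPM in WT control and 5.22, 6.89 and 5.08 in WT dehydrated. In cost1 it went from 11.5, 8.44 and 6.81 CPM to 2.86, 5.19 and 2.35. ARR6 fell in cost1 by 1.36 log2 units (adjusted p = 0.003338), whereas in WT the estimate was 0.48 (adjusted p = 0.2286), and the interaction was −1.84 with an unadjusted p of 0.001218. CIP7, a nuclear protein that binds the light-signalling repressor COP1, fell in both genotypes, by 0.37 in WT and by 0.95 in cost1. Its control levels were 105.1 to 113.3 CPM in WT and 109.1 to 114 in cost1, and its dehydrated levels were 78.1 to 90.4 in WT and 53.0 to 63.1 in cost1. The control groups overlapped and the dehydrated groups did not, though the genotype difference under dehydration was not called (adjusted p = 0.2045 in edgeR).

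3 more of the negative genes fell in both genotypes, with the larger fall in cost1. AT5G03870, a glutaredoxin family protein, fell by 0.80 in WT and by 2.26 in cost1. TRM22 fell by 0.62 and by 1.42, and AT4G28360, a ribosomal protein of the L22p/L17e family, by 0.32 and by 0.93. 3 others had a called rise in WT and no called change in cost1. AAE12, an acyl-activating enzyme, rose by 5.30 in WT, from 0.475, 0 and 0.317 CPM to 11.8, 6.54 and 14.7. In cost1 its control libraries ranged widely, at 2.39, 7.33 and 0.740 CPM, and its dehydrated ones stood at 7.24, 8.06 and 5.54. WT control held 5 reads of AAE12 in all, and without cost1 control replicate 2 its interaction of −4.29 became −3.15. AT5G57070, a hydroxyproline-rich glycoprotein family member, rose by 0.90 in WT against an estimate of 0.12 in cost1, and AT1G45010, a TLC lipid-sensing domain protein, by 1.00 against 0.20. The last 2, AT5G59000 and AT3G25700, had no called change in WT and fell in cost1, by 0.79 and by 0.81. They are annotated as a RING/FYVE/PHD zinc finger protein and an aspartyl protease.

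Among the 12 genes leaning positive, 10 changed in cost1 and 6 in WT, beside 51.0% and 45.5% of all genes. The interaction chose these 12, of which 4 were called in both genotypes. Among them were CYP71B23 and CYP71B24, members of 1 subfamily of cytochrome P450 enzymes. CYP71B23 rose in both genotypes, from 31.2, 26.4 and 22.6 CPM to 59.1, 58.6 and 58.0 in WT, and from 27.1, 22 and 20.4 CPM to 98.1, 102.6 and 79.8 in cost1. Its response was 1.13 in WT and 2.01 in cost1, an interaction of 0.88 with an unadjusted p of 0.001245. CYP71B24 stood at 18.7, 16.2 and 18.22 CPM in WT control and 15, 16 and 18.21 in WT dehydrated, without a called change. In cost1 it rose by 0.94, from 17.5, 11 and 13.6 CPM to 30.8, 26.3 and 23.8. The dehydrated libraries of the 2 genotypes did not overlap for either gene, but the genotype difference under dehydration was not called. Its adjusted p in edgeR was 0.3266 for CYP71B23 and 0.4869 for CYP71B24.

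AT2G23987, an uncharacterised protein with the smallest p in this direction (0.0008835), stood at 9.82, 8.49 and 10.5 CPM in WT control and 6.40, 7.92 and 9.45 in WT dehydrated. In cost1 it rose from 6.22, 6.53 and 4.59 CPM to 11.9, 10.4 and 10.9. AT1G12990, of a beta-1,4-N-acetylglucosaminyltransferase family, rose by 0.49 in WT and by 1.31 in cost1. AT5G25770, an alpha/beta-hydrolase, rose by 0.48 and by 1.24, and NUDT4, a Nudix hydrolase, by 0.58 and by 1.72. These 3 rose in both genotypes, with a larger estimate in cost1.

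AT3G15040, a DUF584 protein annotated as a senescence regulator, rose in cost1 by 1.04, with an estimate of 0.30 in WT that was not called. Likewise AT4G33690, a G patch domain protein, and AT2G05590, a TLD-domain protein, rose in cost1 by 0.91 and by 0.72, with WT estimates of 0.09 and 0.10 that were not called. AT4G36700, of the cupin superfamily, rose in cost1 by 2.28, from 3.35, 1.27 and 2.81 CPM to 13.5, 11.8 and 11.2. Its WT control libraries spread from 2.58 to 12.4 CPM, and those of WT dehydrated from 4.55 to 9.60. UMAMIT20, of the EamA-like transporter family, fell in WT by 0.69 with an estimate of 0.50 in cost1 that was not called. AT4G31930, of a mitochondrial glycoprotein family, fell in WT by 1.15, from 6.02, 5.76 and 5.86 CPM to 3.20, 2.76 and 1.93. In cost1 AT4G31930 was already low in control, at 3.51, 2.71 and 2.37 CPM, and stood at 3.53, 2.51 and 3.19 after dehydration.

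**Figure D3:**
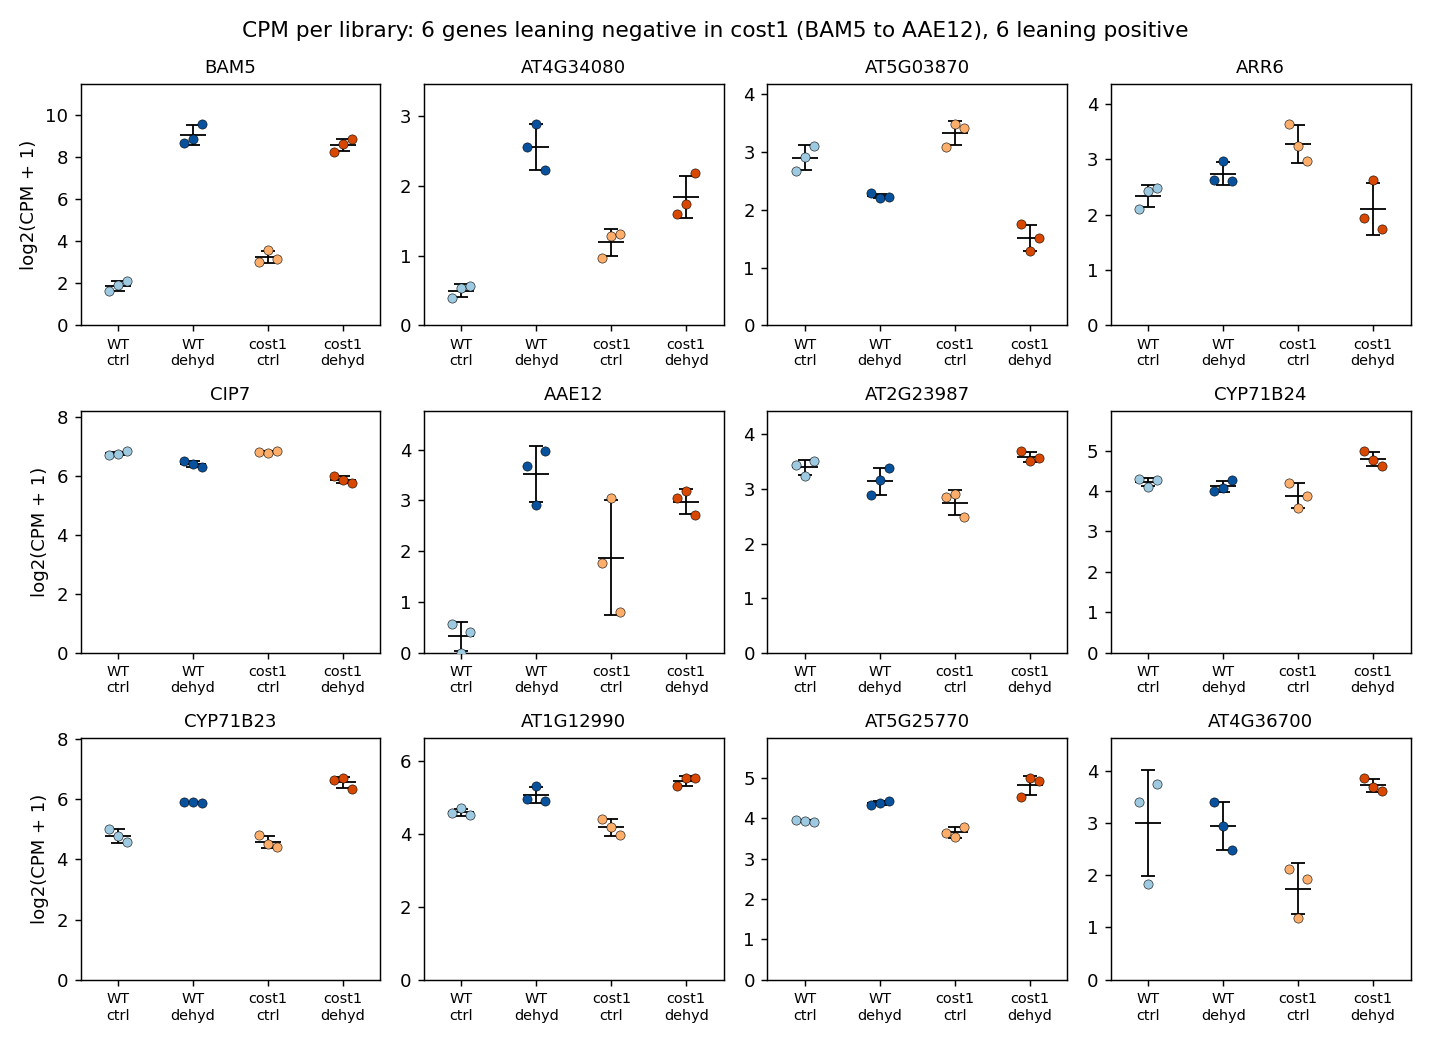
Level of 12 leaning genes in every library as log2(CPM + 1) (vertical axis), for control (ctrl) and dehydrated (dehyd) libraries of WT and cost1; points are libraries, bars the mean and SD of 3. BAM5, AT4G34080, AT5G03870, ARR6, CIP7 and AAE12 leaned negative in cost1, and AT2G23987, CYP71B24, CYP71B23, AT1G12990, AT5G25770 and AT4G36700 leaned positive.

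2 further genes entered by the size of their interaction among genes at an unadjusted p under 0.01, which 87 genes reached (0.463%). ATC, a relative of the flowering repressor TFL1, rose in both genotypes. It stood at 0.158, 0 and 0.317 CPM in WT control and 15.8, 13.8 and 18.9 in WT dehydrated, and at 1.28, 1.59 and 1.92 in cost1 control and 12.4, 31.5 and 21.6 in cost1 dehydrated. WT control held 3 reads of ATC against 282 in WT dehydrated, a ratio of 93.5 with a 95% counting interval from 31.7 to 455.9. The interaction of −2.77 depends on those few control reads. AT1G29430, a SAUR-like auxin-responsive gene, fell in both genotypes. It stood at 8.87, 6.97 and 6.97 CPM in WT control and at 0.168, 0 and 0 in WT dehydrated, with 1 read in all, so that control was 146.8 times higher with an interval from 25.9 to 5838.8. In cost1 it went from 8.29, 6.37 and 7.10 CPM to 1.18, 0.179 and 0.671, and the interaction of 3.25 rests on that single WT read.

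1 gene was called in both genotypes with opposite signs. EMS1, a receptor kinase known from anther development, rose in WT by 0.51 (adjusted p = 0.04874) and fell in cost1 by 0.51 (adjusted p = 0.04926). It stood at 7.61, 6.06 and 8.40 CPM in WT control, 9.94, 11.2 and 10.3 in WT dehydrated, 10.4, 8.28 and 7.99 in cost1 control and 5.89, 5.19 and 7.55 in cost1 dehydrated. The interaction was −1.02 with an unadjusted p of 0.003213 and an adjusted p of 0.9993 in edgeR. For COST1 the interaction was 0.62 ± 0.24 with an unadjusted p of 0.02338, as the gene rose by 0.53 in cost1 (adjusted p = 0.02824) and had a WT estimate of −0.09 (adjusted p = 0.6643). The difference in COST1 between cost1 and WT was −2.1 on the log2 scale in control and −1.48 under dehydration.

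Autophagy genes, the process named in the series title, had a median interaction above 0. Of 42 listed genes 41 were tested, and 20 rose in WT and 27 in cost1, beside 24.9% and 26.4% of all genes. There were 19 that rose in both and none that fell, and the difference between the counts was not tested. The interaction was positive for 33 of the 41 and negative for 8, with a median of 0.23 against −0.02 over all genes. None was called, and 3 had an unadjusted p under 0.05, all positive: ATG18A at 0.54, ATG8B at 0.54 and ATG8I at 0.47. Without cost1 control replicate 2 ATG18A was at 0.46 (unadjusted p = 0.0814 in edgeR), and without both cost1 replicates numbered 2 it was at 0.27. ATG8I was at 0.54 in each of these fits. With 1 library left out the median ranged from 0.12 to 0.33, and without both cost1 replicates numbered 2 it was 0.10, with 27 of 41 positive. The median level of the list was 4.50 to 4.53 on the log2 CPM scale in WT control, 4.42 to 4.58 in cost1 control and 4.85 to 4.92 in WT dehydrated. In the cost1 dehydrated replicates 1, 2 and 3 it was 4.85, 5.32 and 5.22, so replicate 1 was at the WT level and the other 2 lay above it.

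By role, the lean was widest in the ATG8 proteins, which coat the forming autophagosome. All 9 had a positive interaction, with a median of 0.47, and none was called. Of the 9, 2 rose in WT and 6 in cost1, beside 24.9% and 26.4% of all genes, and the difference between these counts was not tested. ATG8H had the largest estimate: its level was 11.5 ± 3.34 FPKM (SD, n = 3) in WT control and 48.6 ± 8.55 in WT dehydrated, and 9.88 ± 1.70 in cost1 control and 68.6 ± 33.3 in cost1 dehydrated. Its interaction of 0.74 had a 95% interval from −0.37 to 1.85. ATG8E had a WT estimate of −0.62 and a cost1 estimate of −0.05, neither called.

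Among the proteins that bring membrane to the autophagosome (ATG9, ATG2 and the ATG18 family), 8 of 9 were positive with a median of 0.29. ATG18A went from 15.1 ± 1.46 to 19.997 ± 1.53 FPKM in WT and from 13.7 ± 1.85 to 26.2 ± 4.98 in cost1, and rose in both genotypes. ATG18F rose by 1.3 in WT and by 1.82 in cost1, and ATG9 by 0.65 and by 1.12. Of the enzymes that attach ATG8 to lipid, 7 of 9 were positive with a median of 0.23, and APG5 (ATG5) rose by 0.42 in cost1 with a WT estimate of 0.06. The initiating kinase complex had 6 of 8 positive with a median of 0.09. The PI3-kinase complex had 3 of 5, with a median of 0.04, and the cargo receptor NBR1 rose by 0.39 and by 0.38.

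**Figure D4:**
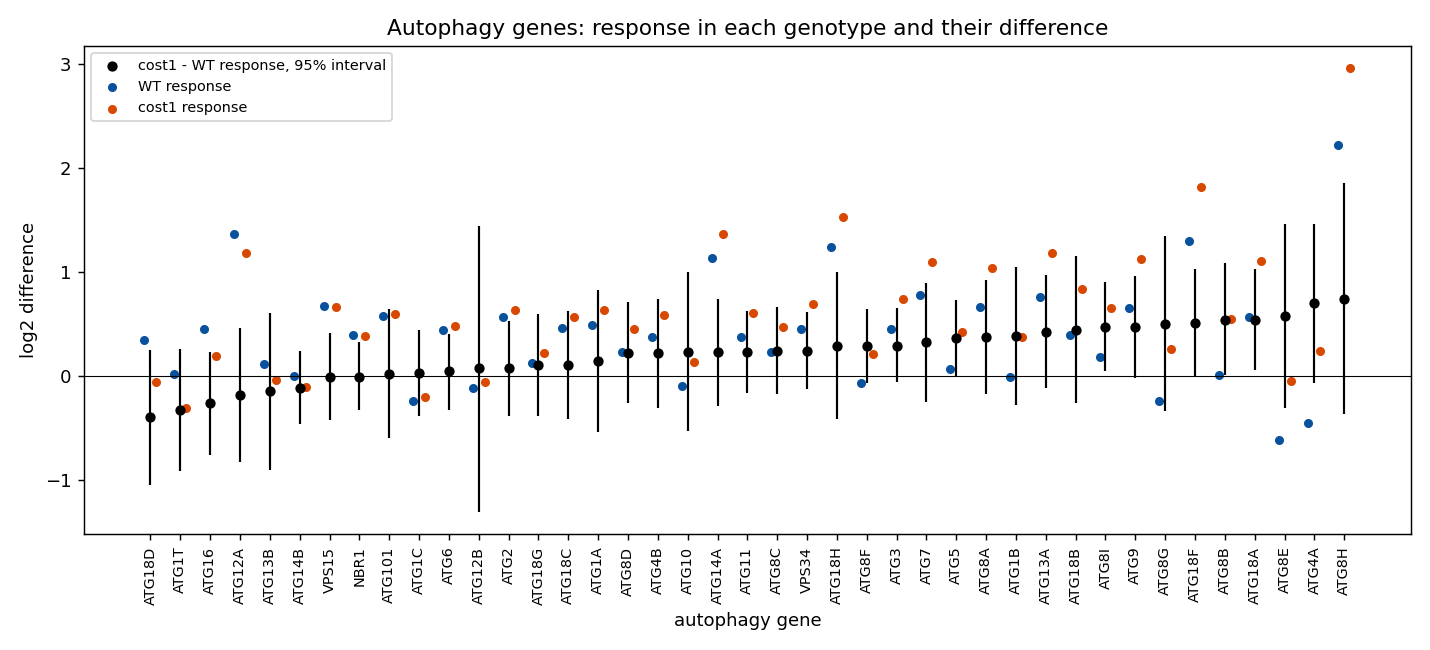
Log2 difference (vertical axis) for each of 41 autophagy genes, ordered by interaction: blue and orange points are the dehydration responses in WT and cost1, and black points the cost1 minus WT response with its 95% interval. All values use 12 libraries. Of the black points 33 lie above 0, and the intervals of ATG18A, ATG8B and ATG8I lie wholly above it.

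The listed dehydration and ABA-induced genes and the tested clade A PP2C genes rose in both genotypes without exception. All 23 dehydration and ABA-induced genes rose in both, beside 4105 of all 18809 genes tested. The members of both lists were chosen with earlier results of these data known. For the 23 genes the median response was 4.65 in WT and 4.69 in cost1, and the interaction was positive for 10 and negative for 13. Its median was −0.20 with all libraries, 0.21 without cost1 control replicate 2 and −0.63 without cost1 dehydrated replicate 2. RD20, a caleosin of lipid droplets, shows how 1 library enters. It stood at 1.90, 4.55 and 3.33 CPM in WT control and 6.22, 61.5 and 4.88 in cost1 control, and at 1144, 1483 and 1698 in WT dehydrated and 724, 3128 and 1554 in cost1 dehydrated. Its interaction was −2.55 with all libraries and −0.44 without cost1 control replicate 2. All 8 tested clade A PP2C genes likewise rose in both genotypes, with a median interaction of −0.36, or 0.09 without cost1 control replicate 2. HAI2 had an interaction of −4.19, or −2.0 without that library. WT control held 1 read of HAI2, so its fold there is not well measured.

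The ABA receptors fell for the most part. Of 9 tested, 7 fell and 2 rose in WT, and 5 fell and 2 rose in cost1. Of all genes 20.6% fell and 24.9% rose in WT, and 24.5% fell and 26.4% rose in cost1. The receptors had a median interaction of 0.25, which was −0.03 without cost1 control replicate 2. Of 11 genes of ABA synthesis and catabolism 9 rose in each genotype, with a median interaction of −0.14 that was 0.20 without cost1 control replicate 2 and −0.38 without cost1 control replicate 1. BGLU18, which releases ABA from its glucose ester, stood at 130.6, 1270 and 204.5 CPM in cost1 control and 145.6 to 199.3 in WT control. Its interaction of −1.85 became −0.18 without the library at 1270 CPM. All 4 tested DREB and CBF genes rose in both genotypes, with a median interaction of −0.12 that ran from −0.39 without cost1 dehydrated replicate 3 to 0.57 without WT dehydrated replicate 2. Of these, DREB1A (CBF3) had −2.07, at an unadjusted p of 0.04011 in edgeR. WT control held 2 reads of DREB1A, and its interaction ranged from −2.42 to −0.18 over the alternatives.

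The medians of the flavonoid, jasmonate and salicylate lists moved with single libraries. The flavonoid and anthocyanin genes had the lowest median, −1.05, with 15 of 17 negative. Of the 17, 9 rose in WT and 3 in cost1, beside 24.9% and 26.4% of all genes. Without cost1 control replicate 2 the median was −0.09 and 8 of 17 were positive, and without cost1 dehydrated replicate 2 it was −1.81. AT1G56650 (PAP1), an activator of anthocyanin synthesis, stood at 0, 16.2 and 0.444 CPM in cost1 control, and its interaction of −4.31 became 0.15 without the middle value. The jasmonate genes had a median of −0.55, with 17 of 21 negative and 19 rising in each genotype, or −0.08 without cost1 control replicate 2. The salicylate and defence genes had a median of 0.19, with 13 of 16 positive, or 0.95 without that library and −0.26 without cost1 dehydrated replicate 2.

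For the glucosinolate genes, whose products are defence compounds, the median was −0.59 and 16 of 17 were negative. It stayed negative with each library left out, from −0.95 to −0.20. MYB34, an activator of indolic glucosinolate synthesis, rose by 2.30 in WT and by 0.85 in cost1. It stood at 11.4, 9.10 and 10.9 CPM in WT control and 42.4, 48.2 and 64.8 in WT dehydrated, and at 11.5, 38.2 and 24.0 in cost1 control and 43.8, 41.2 and 48.0 in cost1 dehydrated. The dehydrated groups overlapped, while the cost1 control libraries were spread. Its interaction was −1.45 (unadjusted p = 0.007566), or −0.99 without cost1 control replicate 2. MYB29, an activator of aliphatic glucosinolate synthesis, fell in cost1 by 1.91, with 14.2, 57.3 and 18.5 CPM in cost1 control.

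Of 23 nuclear photosynthesis genes tested, 3 fell in WT and 14 in cost1, beside 20.6% and 24.5% of all genes. The difference between these counts was not tested. All 23 interactions were negative with a median of −0.29. Without cost1 control replicate 2 the median was −0.07 with 7 of 23 positive, and without both cost1 replicates numbered 2 it was 0.01 with 13 of 23 positive. RBCS1A stood at 9951, 12580 and 8637 CPM in cost1 control and 8983, 5695 and 5408 in cost1 dehydrated, against 11960, 9743 and 10520 in WT control and 9767, 7747 and 9642 in WT dehydrated. Its interaction was −0.39 with a 95% interval from −1.08 to 0.30. Among the genes of DNA replication and the cell cycle 15 of 17 were negative with a median of −0.29, and with 1 library left out the median was from −0.53 to −0.14. Of these, 13 fell in WT and 15 in cost1, among them CYCD3;1, a cyclin that drives cells into division, by 0.75 and by 1.27.

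The senescence and dark-induced genes had the highest median, 0.50, with 10 of 14 positive, and with 1 library left out it ranged from 0.30 to 0.67. Of these 10 rose in WT and 11 in cost1, beside 24.9% and 26.4% of all genes. SAG21, a mitochondrial late embryogenesis abundant protein, rose from 166.7, 150.7 and 130.9 CPM to 489.1, 747.2 and 780.5 in WT, and from 151.1, 78.0 and 102.3 CPM to 665.8, 1071 and 771.2 in cost1. Its response was 2.17 in WT and 2.92 in cost1, an interaction of 0.75 with an unadjusted p of 0.06172 in edgeR. The interaction of SAG21 was 0.55 without cost1 control replicate 2 and 0.33 without both cost1 replicates numbered 2. NAC6 (ORE1), a factor that promotes leaf senescence, rose by 2.4 and by 3.37. The circadian clock genes had a median of 0.37 with 12 of 15 positive, and 0.07 to 0.63 with 1 library left out. Over all 24 lists, 335 members were tested, 0 were called and 16 had an unadjusted p under 0.05 (4.78%, against 3.67% of all genes), and for 102 of them (30.4%) the interval lay within 2-fold.

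**Figure D5:**
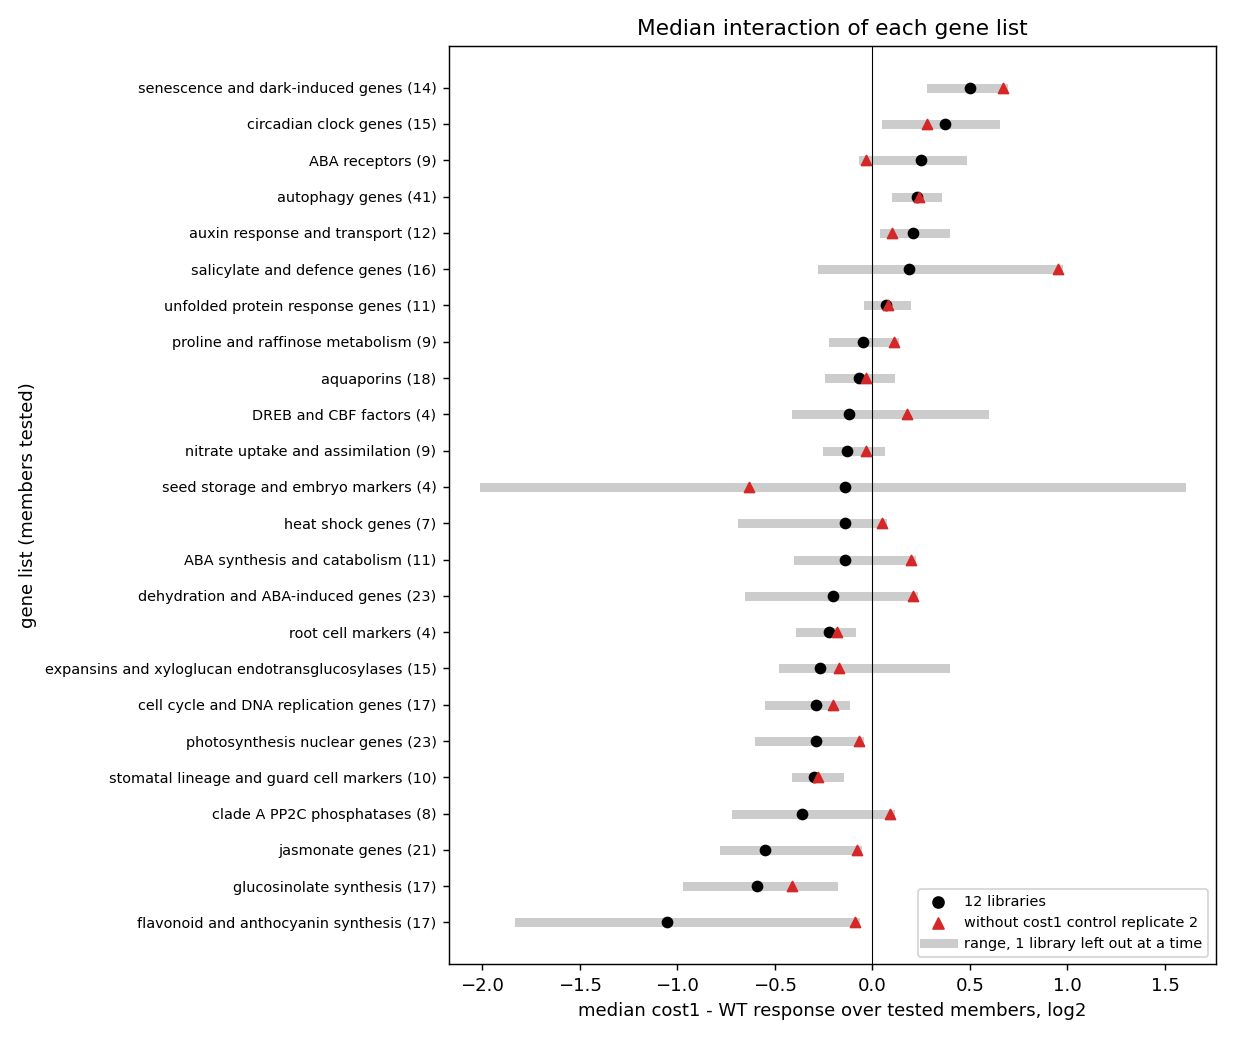
Median cost1 minus WT response (horizontal axis, log2) over the tested members of each of 24 gene lists, with the number tested in brackets; black points use 12 libraries, red triangles leave out cost1 control replicate 2, and grey bars span the medians with 1 library left out at a time. The medians ran from −1.05 for the flavonoid and anthocyanin genes to 0.50 for the senescence and dark-induced genes.

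Markers of single cell types were set beside these lists. All 4 tested root markers had a negative interaction, with a median of −0.22, and 9 of 10 stomatal lineage and guard cell markers were negative with a median of −0.30. The median level of the root markers ran from 4.31 to 4.48 on the log2 CPM scale in WT control, 3.76 to 4.1 in WT dehydrated, 4.31 to 4.53 in cost1 control and 3.51 to 3.96 in cost1 dehydrated. For the stomatal markers these ranges were 2.98 to 3.32, 2.31 to 2.95, 3.13 to 3.36 and 1.95 to 2.96. The ranges of WT and cost1 overlapped in both conditions. The seed markers had a median interaction of −0.14, from −1.99 to 1.58 with 1 library left out. The part of these cell types in the other results was not tested.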

How the data were processed

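Per the labels, the 12 libraries hold poly(A) RNA of whole seedlings, with 3 replicates in each of 4 groups. STAR 2.4.0, HTSeq 0.6.0, DESeq2 and the TAIR10 genome are named in the submitters' processing notes, without their roles. Per the file headers, the deposited tables give an expected count and an FPKM per gene. The expected count is the authors' estimate of a gene's reads before scaling, of which 8.57% lay more than 0.005 from a whole number. The deposited FPKM values were scaled to length and depth by the authors; the program is not named by any source used. A gene not listed in a library was read as 0.

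Expected counts were rounded and fitted in edgeR 4.0.16 (R 4.3.3) with a coefficient per group, TMM scaling and the genes kept by filterByExpr (18809 of 24035). Quasi-likelihood tests with 8 residual degrees of freedom had Benjamini-Hochberg adjustment across the 18809 genes and were called under 0.05. The 95% intervals come from the estimate, its standard error and the degrees of freedom of the fit. CPM values are at TMM scaling, and list levels are medians of log2 CPM with a prior count of 2. Counting intervals cover counting error only. Alternatives were DESeq2 1.42.0, limma 3.58.1 (voom with quality weights, and trend on log2(FPKM + 1) and log2(FPKM + 0.1)), other scalings and filters, a replicate block and libraries left out.

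Named genes were COST1, the 12 per direction with the smallest interaction p at 5 FPKM or more, the 4 per direction with the largest interaction at p under 0.01, from each list up to 2 members of smallest p, and genes called in opposite directions. List members outside this rule were named after their values were seen. The members and lists were chosen with earlier results of these data known. Symbols and products for 23831 loci are those of the TAIR10.1 annotation; no coordinates or sequences are printed. Replicate numbers come from the sample titles. Deviations from the group mean correlated at 0.17, 0.38 and 0.18 between same-numbered cost1 control and dehydrated libraries. The other pairs ranged from −0.18 to 0.39, highest between replicate 1 of WT dehydrated and of cost1 dehydrated. Deviations from a mean of 3 libraries are not independent, and whether the numbers mark a pairing was not tested. The interaction is unpaired.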

Additional observations from a re-analysis of the deposited data

How the results depend on the processing

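The interaction kept 0 called genes under 21 of 22 alternatives and had 1 with DESeq2. Genes at an unadjusted interaction p under 0.05 numbered 690, 1433 with limma-voom quality weights and 474 to 1721 with 1 library left out. Without the filter on low counts Pearson r was 0.77 and Spearman rho 0.754. The slope of 0.94 was 1.036 with quality weights, 0.997 on log2(FPKM + 1), 0.97 on log2(FPKM + 0.1), 0.982 without both cost1 replicates numbered 2 and 0.885 to 1.051 with 1 library left out.

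Genes called in one genotype alone were, with 1 library left out, 741 to 2500 for WT and 1094 to 3282 for cost1, and without both replicates numbered 2 they were 2459 and 780. The genotype difference in control called 4 genes, 1 at 50 counts or more in 3 libraries, 14 with DESeq2, 10 with quality weights, 1 without both and 1 to 7 with 1 library left out. Under dehydration it called 7, 4 at 50 counts or more, 29 with DESeq2, 11 on log2(FPKM + 1) and 0 to 8 with 1 library left out. COST1 under dehydration was −1.38 to −1.55 with 1 library left out and missed the threshold in 3 of these edgeR fits, at an adjusted p of 0.111 and 0.0807 on leaving out the first and the second WT dehydrated library and of 0.0734 on leaving out the third cost1 dehydrated one.

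With the replicate block, which pairs libraries by number, the interaction again called 0 genes, the genotype difference called 1 in control and 2 under dehydration, the cost1 response called 9343 against 9585, and no other call changed by over 1.5 times. Same-numbered deviations correlated over 0.1 in 4 of 18 pairs.

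Of 1653 values of named-gene interactions under alternatives 11 reversed. HAI1 was −1.26, 0.78 with quality weights, 0.36 without both replicates numbered 2 and −1.80 to 0.82 with 1 library left out. With 1 library left out PAD3 (−1.15) ran from −1.56 to 0.26, P5CS1 (−1.73) from −2.23 to 0.03 and AT1G56650 (−4.31) from −6.05 to 0.15, each highest without cost1 control replicate 2. GEA6 went from −2.33 to 0.85 on log2(FPKM + 1). DREB2B (0.22) ran from −0.45 to 0.60 with 1 library left out, lowest without cost1 dehydrated replicate 3, and GL2 (−0.14) from −0.27 to 0.02, highest without cost1 dehydrated replicate 2, and was 0.04 without both. The cause was not tested. Depth limits genes of few reads, such as ATC and AT1G29430.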

Other observations

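The aquaporins, channels for water across membranes, rose for 11 of 18 members in each genotype, beside 24.9% of all genes in WT and 26.4% in cost1. Their median interaction was −0.07, from −0.22 to 0.09 with 1 library left out. RD28 rose by 5.58 in WT and by 4.74 in cost1. The proline and raffinose genes, which make osmolytes, had 6 of 9 rising in each genotype and a median of −0.05, from −0.20 to 0.11. The unfolded protein response genes had a median of 0.07 with 9 of 11 positive, from −0.02 to 0.17. IRE1A, a sensor of misfolded protein in the endoplasmic reticulum, rose by 0.79 and by 1.23, with an unadjusted interaction p of 0.02485 in edgeR. That p was 0.0592 without cost1 control replicate 2 and 0.101 without both cost1 replicates numbered 2. The heat shock genes had a median of −0.14, which ran from −0.67 without cost1 dehydrated replicate 1 to 0.05 without cost1 control replicate 2. The nitrate genes had −0.13, from −0.23 without cost1 dehydrated replicate 1 to 0.04 without WT dehydrated replicate 3. Among the nitrate genes NIA1, a nitrate reductase, fell by 1.99 in WT and by 1.40 in cost1.

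Growth genes leaned in both directions. The auxin genes had a median of 0.21 with 8 of 12 positive, from 0.06 to 0.37 with 1 library left out, and IAA1, an early auxin-responsive repressor, fell in WT by 1.78 with a cost1 estimate of −0.48 that was not called. The interaction of IAA1 was 1.3 with an unadjusted p of 0.02365 in edgeR. The expansins and xyloglucan endotransglucosylases, which loosen the cell wall, had a median of −0.27, and 0.37 without WT dehydrated replicate 1. EXPA1 stood at 103.9, 83.5 and 86.2 CPM in WT control and 105.9, 96.8 and 119.8 in WT dehydrated, without a called change. In cost1 EXPA1 fell by 0.77, from 85.1, 203.8 and 117.2 CPM to 90.2, 65.7 and 81.5, with the highest value in cost1 control replicate 2. Its interaction was −1.01 with that library and −0.60 without it.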
